A study of Xenopus laevis with 6 samples.

Results

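The genes described are the HoxB and HoxC genes and the anterior HoxA and HoxD genes (Hox numbers 1 to 8) of the hind limb bud of the African clawed frog Xenopus laevis. They were chosen by name from the authors' deposited table of significant genes, the only one of the deposited tables that pairs gene IDs with names, and joined to the deposited count table. The rule found 28 gene copies among 6943 gene IDs with a name and 51061 gene IDs in all. Of these, 13 were HoxB copies, 7 were HoxC copies and 8 were anterior HoxA or HoxD copies. Measured values did not enter the rule directly, but a gene has a name in that table only if the authors called it between at least 1 pair of segments. How many of the 28 copies passed a test is therefore no independent result, and the sizes, the directions and the differences among the copies are what the data add. For some HoxB copies and for hoxd1.L the filter on low counts also limits what the direction can show, as given below.

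Hox genes encode homeodomain transcription factors that give cells their position along the body axis and, in limbs, along the limb. In vertebrates they lie in clusters named HoxA to HoxD, and the order of the genes in a cluster follows the order in which they are used from head to tail. In mouse and chick limbs the posterior HoxA and HoxD genes pattern the skeleton, the posterior HoxC genes are used in the hind limb rather than the forelimb, and HoxB genes are used in the trunk, early limb field, nerves and blood cells. Xenopus laevis is an allotetraploid, so that a gene can be kept as a copy on a long chromosome (L) and a copy on a short one (S), called homeologs.

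Limb buds of wild type tadpoles at stage 51 were divided into a proximal, a medial and a distal segment. Each segment was sampled as 2 pools of 30 hind limbs, which the labels call biological replicates, and 1 ug of total RNA per pool went into each of the 6 sequencing libraries. No group carried a transgene, a mutation or a treatment, and RNA came from the whole segment with no cell type isolated. P-values here measure the spread between pools.

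The libraries held 10815041 (proximal pool 1) to 35479915 (proximal pool 2) assigned fragments. Levels are given as counts divided by the scaled library size (CPM), and 3 counts, used as a floor, corresponded to 0.0839 to 0.283 CPM. Markers of limb mesenchyme and of hind limb identity were present in every library. The pitx1.L copy, a hind limb identity gene in vertebrates, ranged from 196 to 362 CPM, and the lowest of the prrx1 and prrx2 copies was prrx2.L, at 30.6 to 59.7 CPM. All 28 Hox copies passed the filter on low counts, which kept 27007 gene IDs.

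The 3 sets of Hox genes ran differently along the limb. Summed over its 13 copies, HoxB went from 58.6 and 68.0 CPM in the proximal pools to 10.7 and 10.2 CPM in the medial pools and 5.46 and 5.40 CPM in the distal pools. Summed over its 7 copies, HoxC stayed near its proximal level in the medial pools (109 and 112 CPM proximal, 104 and 111 CPM medial). It stood at 45.0 and 47.1 CPM in the distal pools. Most of this sum came from hoxc4.L, hoxc10.L and hoxc11.S. Of the less abundant copies, both hoxc3 copies and hoxc9.S had lower means in the medial than in the proximal segment, and hoxc12.L had a higher one. The 8 anterior HoxA and HoxD copies together ran the other way, from 102 and 94.2 CPM in the proximal pools over 125 and 121 CPM in the medial pools to 237 and 253 CPM in the distal pools. With 2 pools per segment no permutation test of a summed level between 2 segments can pass a threshold of 0.05. The sums are given without a test. In a bulk sample, fewer cells using a gene and less RNA of that gene per cell cannot be told apart.

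**Figure D1:**
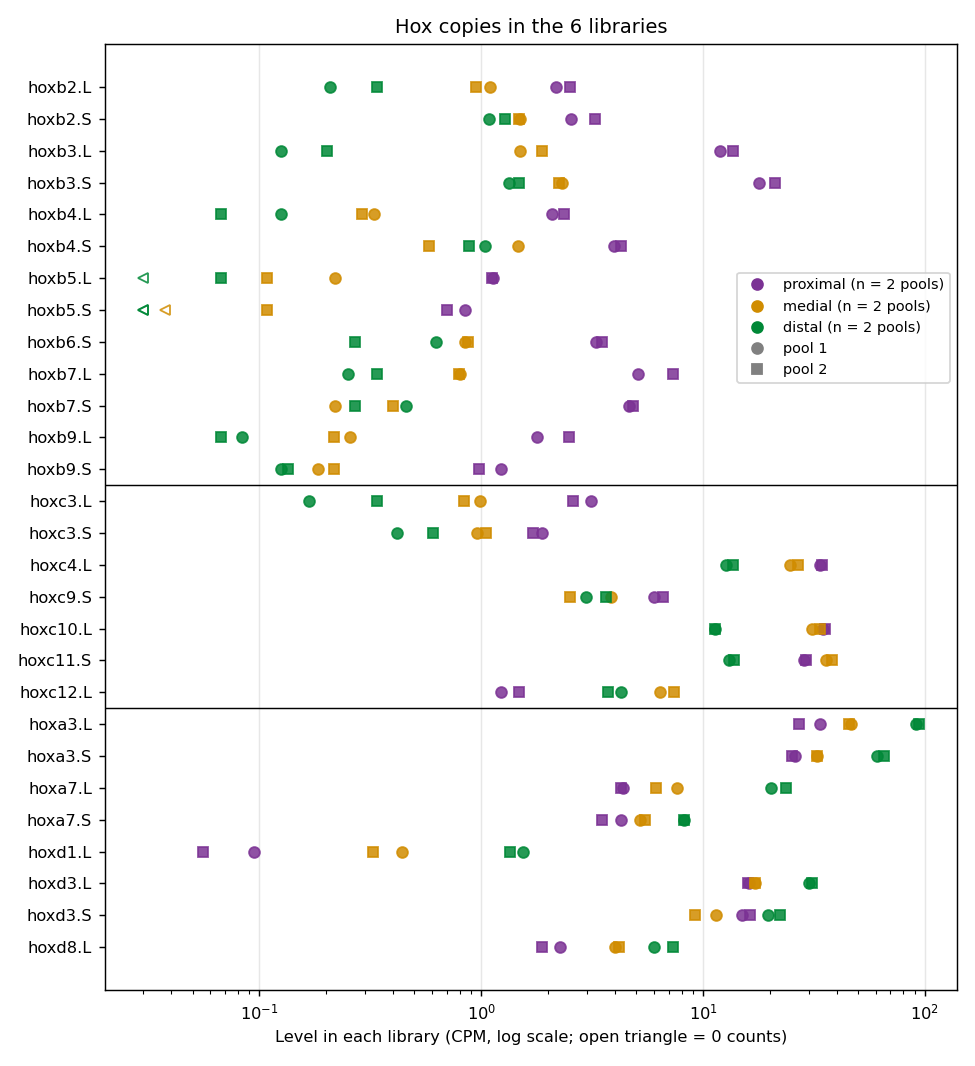
Level of each of the 28 Hox copies in each of the 6 libraries, in CPM on a log axis, with circles for pool 1, squares for pool 2 and colours for the segments (an open triangle marks a library with 0 counts, drawn at the left edge and moved slightly to the right for a medial library). Proximal points lie furthest to the right for all 13 HoxB copies, distal points for all 8 anterior HoxA and HoxD copies, and the 7 HoxC copies show 4 different orders.

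The HoxB copies were low-abundance genes, and they were highest in the proximal segment without exception. The S copy of hoxb3 (gene11257, chromosome 9_10S, 3106722 to 3112484, minus strand) had the highest length-corrected level of the set, a mean of 1.92 CPM per kb of exon over the 6 libraries, and hoxb5.S had the lowest, 0.135 CPM per kb. Coordinates here and below are printed as the counts were deposited, for a genome build not given in the sources used here. The hoxb3.S copy was at 17.9 and 21.01 CPM in the proximal pools, 2.31 and 2.25 CPM in the medial pools and 1.33 and 1.48 CPM in the distal pools. Its proximal pools stood far above the other 4 libraries, and the 3 segments did not overlap. Distal against proximal its log2 fold change was −3.81 (SE 0.18), with an adjusted p of 7.02e-08 in edgeR's quasi-likelihood test with Benjamini-Hochberg adjustment over all genes tested. Hox3 genes act in hindbrain and pharyngeal patterning in the mouse.

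For hoxb3.L, levels were 11.9 and 13.7 CPM in the proximal pools, 1.503 and 1.89 CPM in the medial pools and 0.125 and 0.202 CPM in the distal pools. The distal values rest on 3 and 3 counts. From summed counts, the proximal level was higher than the distal one by a ratio of 85.7 (95% counting interval 39.1 to 234), and the interval covers counting error only. All 3 segments were separate for this copy too.

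Besides the hoxb3 copies, hoxb7.L, a trunk Hox gene, reached 5 CPM in a segment. It was at 5.096 and 7.33 CPM in the proximal pools, 0.806 and 0.798 CPM in the medial pools and 0.250 and 0.337 CPM in the distal pools. Distal against proximal the log2 fold change was −4.47 (SE 0.34), at an edgeR adjusted p of 2.24e-06. Both proximal pools lay above every other library.

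The other 10 HoxB copies were below 5 CPM in every segment, and their proximal means ran from 0.774 CPM (hoxb5.S) to 4.73 CPM (hoxb7.S). Of these, hoxb5.S had no distal count against 9 and 25 proximal counts, so its distal level was at least 9.49-fold lower, taking a floor of 3 counts over both distal libraries. Its L copy had 0 and 1 distal counts and a ratio of proximal to distal of 43.5 (95% counting interval 7.48 to 1753). Few distal counts were also behind hoxb4.L, with a ratio of 22.2 (95% counting interval 8.42 to 82.95), and behind hoxb9.L, with 30.1 (95% counting interval 10.05 to 148). The smallest difference in the set was that of hoxb2.S, at 2.55 and 3.25 CPM proximally and 1.08 and 1.28 CPM distally. The log2 fold change of hoxb2.S was −1.35 (SE 0.27) at an edgeR adjusted p of 0.00285, which became 0.0698 without proximal pool 2 and 0.0554 without distal pool 1.

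In the HoxC set, hoxc10.L, hoxc11.S and hoxc4.L had the highest levels per kb, and all 3 were lowest in the distal segment. The L copy of hoxc10 (gene13246, chromosome 2L, 148334362 to 148338747, minus strand), a lumbar and hind limb Hox gene in mouse and chick, had the highest length-corrected mean of all 28 copies, 14.9 CPM per kb. It was at 34.7 and 35.6 CPM in the proximal pools, 30.9 and 33.8 CPM in the medial pools and 11.3 and 11.3 CPM in the distal pools. The proximal and medial pools lay close together and the distal pools stood apart below them. The log2 fold change was −1.63 (SE 0.10) distal against proximal (adjusted p in edgeR = 5.40e-07) and −0.12 (SE 0.09) medial against proximal (adjusted p in edgeR = 0.604).

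The S copy of hoxc11, the neighbour of hoxc10 in the cluster, peaked in the medial segment. It was at 28.5 and 29.3 CPM in the proximal pools, 35.8 and 38.3 CPM in the medial pools and 13.1 and 13.8 CPM in the distal pools. No segment overlapped another. Its log2 fold change was −1.47 (SE 0.10) distal against medial (adjusted p in edgeR = 1.43e-06) and 0.36 (SE 0.09) medial against proximal (adjusted p in edgeR = 0.0391). The second of these calls was lost in 5 of 6 fits that left out 1 library, with adjusted p-values of up to 0.143 (without proximal pool 2).

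Among HoxC copies hoxc12.L, a posterior one, was the only one higher distally than proximally. It was at 1.23 and 1.48 CPM in the proximal pools, 6.38 and 7.396 CPM in the medial pools and 4.25 and 3.71 CPM in the distal pools. The medial pools were the highest and the proximal pools the lowest, with no overlap. Its log2 fold change was 2.29 (SE 0.21) medial against proximal, −0.78 (SE 0.19) distal against medial and 1.51 (SE 0.23) distal against proximal. The edgeR adjusted p-values were 5.18e-05, 0.0103 and 0.000449, and the second of these rose to 0.0913 without distal pool 2.

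The anterior HoxC gene hoxc4 (L copy), a neck and upper trunk gene in the mouse, was at 33.6 and 34.6 CPM in the proximal pools, 24.6 and 26.9 CPM in the medial pools and 12.8 and 13.7 CPM in the distal pools. It stepped down at both boundaries, with a log2 fold change of −0.41 (SE 0.10) medial against proximal and −0.97 (SE 0.10) distal against medial. Of the edgeR adjusted p-values, 4.71e-05 for the outer boundary held in all 6 fits without 1 library. The 0.0257 for the inner boundary was lost in 5 of them, reaching 0.185 without proximal pool 2.

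The S copy of hoxc9, a thoracic Hox gene in the mouse, was at 6.04 and 6.63 CPM in the proximal pools, 3.85 and 2.502 CPM in the medial pools and 2.96 and 3.64 CPM in the distal pools. The proximal pools were the highest, and the medial and distal pools overlapped. Its log2 fold change distal against proximal was −0.97 (SE 0.23, adjusted p in edgeR = 0.00864). That p became 0.0907 without proximal pool 2 and 0.117 without distal pool 1.

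Both copies of hoxc3, an anterior HoxC gene that mouse and human lack, were below 5 CPM and ran down the limb like the HoxB copies. The L copy was at 3.11 and 2.602 CPM proximally, 0.989 and 0.834 CPM medially and 0.167 and 0.337 CPM distally, a log2 fold change distal against proximal of −3.55 (SE 0.40) at an edgeR adjusted p of 4.68e-05. For the S copy it was −1.83 (SE 0.35), at an edgeR adjusted p of 0.00222 that rose to 0.0525 without distal pool 1.

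The anterior HoxA and HoxD copies were highest in the distal segment, all 8 of them. The L copy of hoxa3 (gene15734, chromosome 6L, 39595196 to 39614827, minus strand) led the set with a mean of 14.3 CPM per kb. It was at 33.7 and 27.1 CPM in the proximal pools, 46.3 and 45.7 CPM in the medial pools and 90.8 and 93.8 CPM in the distal pools. The distal pools were about level with each other and far above the rest. Distal against proximal it changed by 1.62 (SE 0.11) on the log2 scale (adjusted p in edgeR = 9.53e-07).

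The S copy of hoxa3 was at 25.95 and 25.1 CPM in the proximal pools, 32.7 and 32.6 CPM in the medial pools and 60.9 and 65.7 CPM in the distal pools. Its segments were separate in the same order, and the log2 fold change was 1.31 (SE 0.09, adjusted p in edgeR = 1.26e-06). In the mouse, hoxa3 is known for pharyngeal arch and thymus development. Other annotated genes overlapped 4.57% of the exon length of hoxa3.L and 16.3% of that of hoxa3.S, on the opposite strand. For hoxd3.S the share was 2.27%, on the same strand, and no other of the 28 copies shared exon bases with another gene. Strand was not used in the counting, and fragments shared by genes were left out. Fragments over these shared bases were therefore counted for neither gene.

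The L copy of hoxa7, a trunk Hox gene, had the largest change of the well-expressed anterior copies. It was at 4.34 and 4.28 CPM in the proximal pools, 7.62 and 6.13 CPM in the medial pools and 20.2 and 23.5 CPM in the distal pools. Distal against proximal it changed by 2.34 (SE 0.16) on the log2 scale (adjusted p in edgeR = 9.78e-07). The S copy rose less steeply, from 4.25 and 3.497 CPM over 5.204 and 5.47 CPM to 8.17 and 8.23 CPM, and its log2 difference was 1.12 (SE 0.17, adjusted p in edgeR = 0.000498). No segment overlapped another in either copy.

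Among the HoxD copies, hoxd3.L was at 16.1 and 16.03 CPM in the proximal pools, 17.1 and 17.2 CPM in the medial pools and 29.97 and 30.8 CPM in the distal pools. Its proximal and medial pools were nearly level and its distal pools stood above them. The log2 fold change was 0.92 (SE 0.10) distal against proximal and 0.09 (SE 0.10) medial against proximal, with edgeR adjusted p-values of 3.56e-05 and 0.744.

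The S copy of hoxd3 was the exception in order. It was at 14.9 and 16.2 CPM in the proximal pools, 11.4 and 9.25 CPM in the medial pools and 19.7 and 22.1 CPM in the distal pools. The medial pools were thus the lowest and the distal pools the highest, with no overlap. Medial against proximal it fell by 0.60 on the log2 scale (adjusted p in edgeR = 0.0170, and 0.180 without proximal pool 2). Distal against proximal its log2 fold change was 0.41 (SE 0.13) at an edgeR adjusted p of 0.0362, a call that was lost in 4 of 6 fits without 1 library and reached 0.215 without distal pool 2.

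A trunk Hox gene, hoxd8.L, was at 2.26 and 1.87 CPM in the proximal pools, 3.99 and 4.17 CPM in the medial pools and 6.002 and 7.29 CPM in the distal pools. It climbed at each boundary without overlap, with a log2 fold change of 1.72 (SE 0.21) distal against proximal (adjusted p in edgeR = 9.56e-05). The most anterior gene of the set, hoxd1.L, was near the floor in the proximal pools (0.0944 and 0.0560 CPM, from 1 and 2 counts). It was at 0.440 and 0.326 CPM in the medial pools and 1.54 and 1.35 CPM in the distal pools. From summed counts its distal level was higher than the proximal one by a ratio of 22.7 (95% counting interval 7.38 to 113). This copy passed the filter on low counts only through the distal pools, so the direction is no independent result.

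Distal against proximal, all 13 HoxB copies fell, 6 of 7 HoxC copies fell and 1 (hoxc12.L) rose, and all 8 anterior HoxA and HoxD copies rose. The copies hoxb4.L, hoxb5.L, hoxb5.S, hoxb9.L and hoxb9.S had fewer than 10 counts in every medial and distal library. They passed the filter on low counts only through the proximal pools. The filter scales its minimum of 10 counts by library size. So hoxb7.S, with 6 and 11 medial and 11 and 4 distal counts, also passed only through the proximal pools. Likewise hoxd1.L passed only through the distal pools. The direction of these HoxB copies against the proximal segment is therefore no independent result. Nor is the direction of hoxd1.L in comparisons with the distal segment. Over all 27007 genes tested, 13.6% were called higher and 15.9% lower, and over the 6912 named genes tested, the fitting background here, 39.3% were called higher and 49.0% lower. The median log2 fold change was −3.81 for HoxB, −1.37 for HoxC and 1.47 for the anterior HoxA and HoxD copies, beside −0.0033 for all genes tested and −0.36 for the named ones. With hoxb5.S set at its bound the HoxB median was −3.61. Both distal pools lay below both proximal pools in 19 of 28 copies and above them in 9, while over all genes tested these shares were 32.9% and 33.2%. The copies have a name because the authors called them, 27 of them in this comparison, so their separation is no independent result. The shares over the named genes are not given here. Called in all 6 fits that left out 1 library were 23 of the 28. The calls of hoxb2.S, hoxc3.S, hoxc9.S and hoxd3.S were lost in some, and hoxb5.S was called in 5 but did not pass the filter on low counts, and so was not tested, without proximal pool 2.

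**Figure D2:**
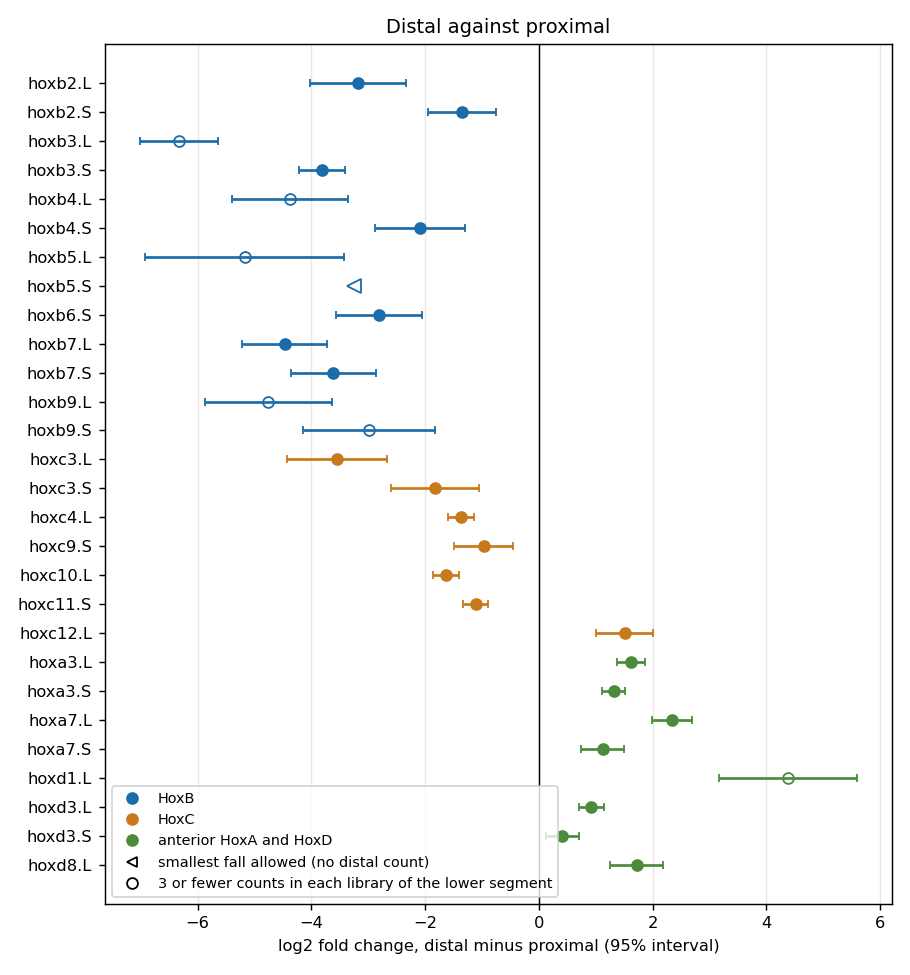
Log2 fold change distal minus proximal of each copy from the edgeR fit, with its 95% interval, coloured by set. All 13 HoxB copies lie left of 0 and all 8 anterior HoxA and HoxD copies right of it, open circles mark copies with 3 or fewer counts in each library of the lower segment, and the open triangle of hoxb5.S is the smallest fall its counts allow.

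The distance from proximal to distal was then divided into an inner step (medial against proximal) and an outer step (distal against medial). These 2 comparisons share the medial pools, so values are set side by side. At the inner step, all 13 HoxB copies fell, with a median log2 fold change of −2.84 and single values from −3.92 (hoxb7.S) to −0.997 (hoxb2.S). For the copies that passed the filter only through the proximal pools, hoxb7.S among them, this direction is no independent result. In HoxC 3 copies fell (hoxc3.L, hoxc4.L and hoxc9.S), 2 rose (hoxc11.S and hoxc12.L) and 2 did not pass the test. Of the anterior HoxA and HoxD copies 5 rose and 1 (hoxd3.S) fell, while hoxa7.S (0.50, SE 0.17, adjusted p in edgeR = 0.125) and hoxd3.L did not pass. Together 7 copies were called higher and 17 lower, where 2.73% and 4.88% of all genes tested and 9.82% and 16.7% of the named ones were called. With no scaling factor these were 4 higher and 17 lower. Without proximal pool 2, 9 of the 24 calls were made, and DESeq2 made 14. The calls of both hoxb3 and both hoxb7 copies, hoxb4.L, hoxb6.S, hoxb9.L, hoxc3.L and hoxc12.L held in all 6 fits without 1 library. Of the other 15, hoxb5.S was not tested without proximal pool 2 and lost its call without proximal pool 1 (adjusted p in edgeR = 0.0664), and the rest had their largest p without proximal pool 2.

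At the outer step the 8 anterior HoxA and HoxD copies all rose, with a median log2 fold change of 0.98. For hoxd1.L, which passed the filter on low counts only through the distal pools, the direction is no independent result. In HoxC 5 copies fell, while hoxc3.S (−1.01, SE 0.37, adjusted p in edgeR = 0.0658) and hoxc9.S (0.04, SE 0.24, adjusted p in edgeR = 0.930) did not pass. In HoxB 4 copies fell (hoxb2.L, hoxb3.L, hoxb3.S and hoxb7.L), and 9 did not pass. Of all genes tested 12.1% were called higher and 12.9% lower at this step, and of the named ones 35.6% and 41.1%. Without distal pool 1, 9 of the 17 calls were made, 12 without distal pool 2, and DESeq2 made 11. The calls of hoxb3.L, hoxc4.L, hoxc10.L, hoxc11.S, both hoxa3 copies, hoxa7.L and both hoxd3 copies held in all 6 fits without 1 library. Of the 8 others, hoxc12.L and hoxd8.L had their largest p without distal pool 2 and the remaining ones theirs without distal pool 1, among them hoxb3.S (0.244) and hoxb7.L (0.250).

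Whether the outer step differed from the inner one was tested as a contrast of its own in the edgeR fit. It was called for 9 of 28 copies, beside 9.73% of all genes tested and 35.0% of the named ones, and for 5 copies without distal pool 1. The HoxC copies hoxc10.L, hoxc11.S and hoxc12.L had outer steps below their inner ones, with differences of −1.39, −1.83 and −3.07 on the log2 scale (adjusted p in edgeR = 0.000212, 2.62e-05 and 0.000104), and these calls held in all 6 fits without 1 library. In HoxB the fall of hoxb3.S lay mostly at the inner step, −3.10 against −0.70, a difference of 2.40 (SE 0.33, adjusted p in edgeR = 0.000755). For hoxb7.S the difference was 4.22 (SE 0.75, adjusted p in edgeR = 0.00374, and 0.0832 without distal pool 1). As hoxb7.S passed the filter only through the proximal pools, its difference is no independent result either. The L copy of hoxb3, by contrast in values, fell by 2.92 at the inner and 3.41 at the outer step. This difference of −0.48 (SE 0.55) did not pass (adjusted p in edgeR = 0.708). Among the anterior copies, hoxd3.S (1.62, SE 0.23, adjusted p in edgeR = 0.000989) had the firmest call. The calls of hoxa3.S, hoxa7.L and hoxd3.L were each lost in at least 4 of 6 fits without 1 library, with adjusted p-values of up to 0.172, 0.231 and 0.0957.

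**Figure D3:**
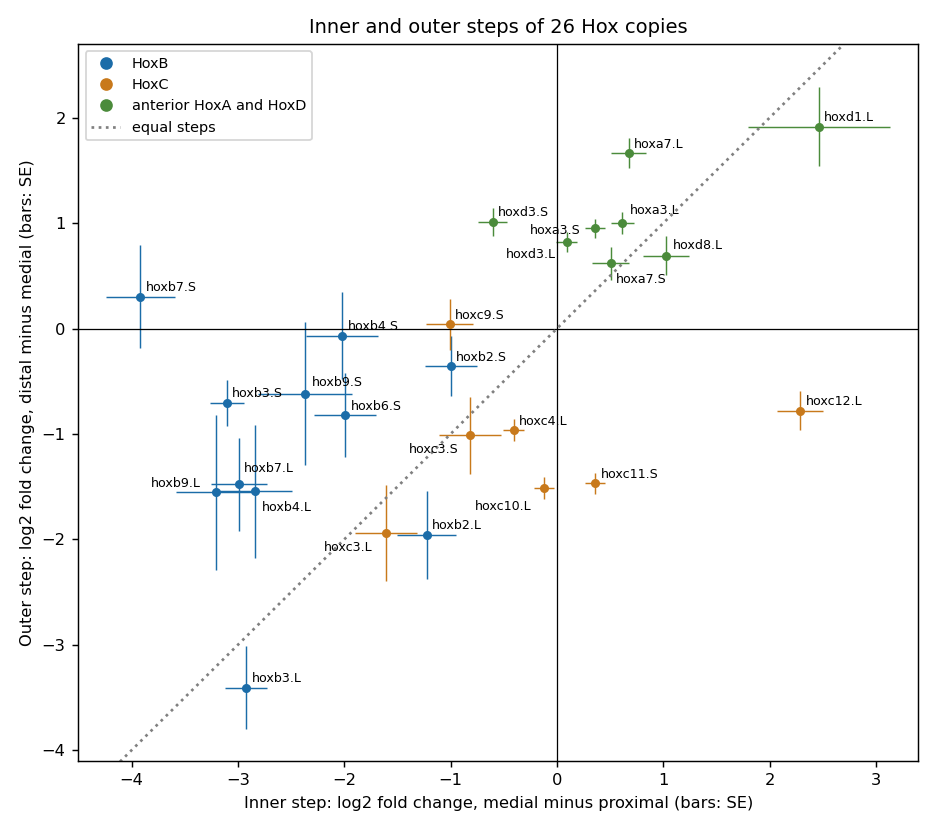
Inner step (medial minus proximal, horizontal) against outer step (distal minus medial, vertical) of 26 Hox copies, as log2 fold changes with SE bars, leaving out both hoxb5 copies because of their 0 counts. HoxB copies lie to the left, with hoxb7.S at −3.92 and 0.30, most HoxC copies lie low and near the middle, and anterior HoxA and HoxD copies lie above 0 on the vertical axis. Both axes contain the medial pools, so errors of the axes are linked.

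Position in the clusters was set beside these values. In the deposited annotation, the named HoxB genes spanned 92.1 kb on chromosome 9_10L (3458472 to 3550608) and 73.2 kb on chromosome 9_10S (3100649 to 3173853), and the HoxC genes 246 kb on chromosome 2L and 220 kb on chromosome 2S. The named HoxB copies all fell on both chromosomes, from hoxb2 to hoxb9. Only genes the authors called carry a name, so a Hox gene without a call could not appear here. In HoxC the log2 fold changes distal against proximal on the L chromosome were −3.55 (hoxc3.L), −1.37 (hoxc4.L), −1.63 (hoxc10.L) and 1.51 (hoxc12.L). They were lowest in the most anterior named copy and highest in the most posterior one. On the S chromosome they were −1.83 (hoxc3.S), −0.97 (hoxc9.S) and −1.11 (hoxc11.S). These are descriptions of 4 and 3 copies.

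For comparison, the posterior HoxA and HoxD genes (Hox 9 to 13), the known organisers of the limb skeleton, had 13 copies higher distally, 1 lower and 1 uncalled among 15 named ones, with a median log2 fold change of 1.68. The largest were hoxd13.L, at 5.75 (SE 0.33, adjusted p in edgeR = 6.34e-05), and hoxd13.S, at 5.11 (SE 0.55, adjusted p in edgeR = 0.00448), and the one that fell was hoxd9.S, at −0.70 (SE 0.12, adjusted p in edgeR = 0.0013). The anterior copies in the same clusters had a median of 1.47, and the largest of their well-expressed members, hoxa7.L, was at 2.34. No test was made of the difference between the sets.

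**Figure D4:**
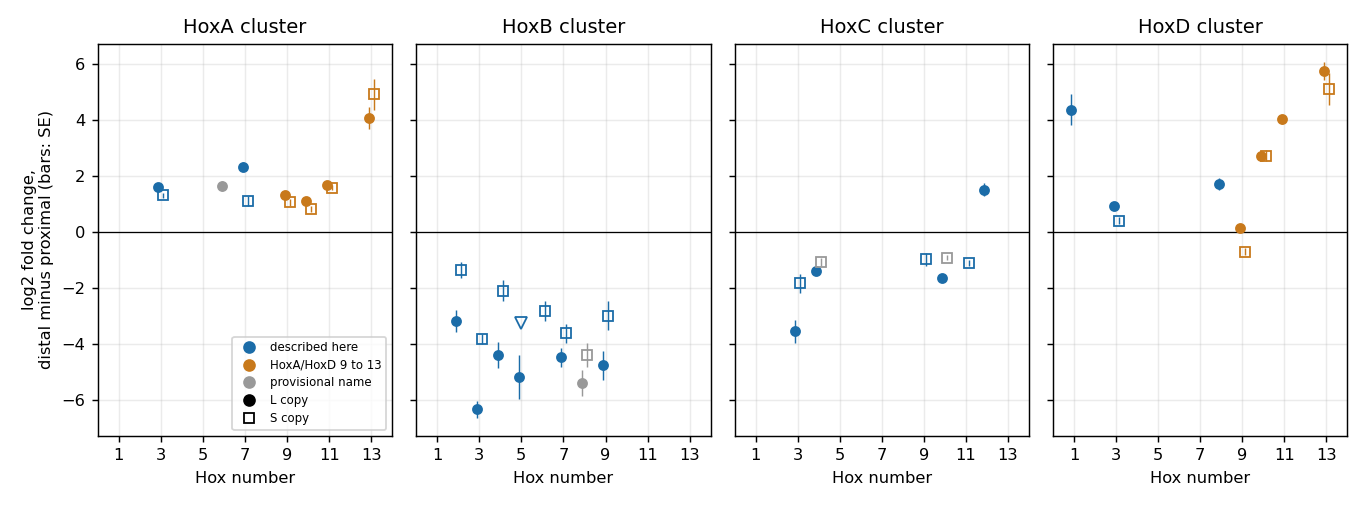
Log2 fold change distal minus proximal (bars: SE) against Hox number for the named copies of each cluster, with filled circles for L copies and open squares for S copies. Blue marks the 28 copies described, orange the posterior HoxA and HoxD copies, grey 5 gene IDs with provisional Hox names, and the open triangle of hoxb5.S is the smallest fall its counts allow. HoxB lies below 0 throughout, HoxC below 0 up to hoxc11.S, and HoxA above 0 throughout.

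Both homeologs carried a name in 10 genes, and in every pair they had the same direction distal against proximal. Levels were compared per kb of exon, and differences between copies were not tested. Fragments with several alignments were left out of the counts. A level therefore also depends on how much of a copy aligns uniquely, which was not measured. In the proximal pools, hoxb3.S was at 4.83 ± 0.541 CPM per kb (SD, n = 2) and hoxb3.L at 1.28 ± 0.125 CPM per kb (SD, n = 2). Distally hoxb3.S kept 0.350 ± 0.0264 CPM per kb while hoxb3.L was at 0.0164 ± 0.00550 CPM per kb (SD, n = 2 each). The deposited annotation gives hoxb3.L 11 merged exons over a span that contains hoxb4.L and hoxb5.L without sharing exon bases, and gives hoxb3.S 3 merged exons, so the lengths behind these levels differ. In the same way the span of hoxd3.L contains hoxd8.L and the posterior hoxd9.L, and that of hoxa3.S contains hoxa7.S. The annotated exon lengths of the hoxd3 copies differ too, at 7902 bp (L) and 13281 bp (S).

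In hoxb2, hoxb3, hoxb4, hoxb7, hoxb9 and hoxc3 the fall of the L copy was the larger in value, and in hoxb5 the 0 distal counts of the S copy leave the order unknown. The pair hoxb2 stood at −3.18 and −1.35 log2 distal against proximal, hoxb4 at −4.38 and −2.09, and hoxc3 at −3.55 and −1.83. The rise of the L copy was also the larger in hoxa3, hoxa7 and hoxd3. For hoxa7 the distal pools held 11.4 ± 1.23 CPM per kb of the L copy and 4.16 ± 0.0224 CPM per kb of the S copy (SD, n = 2 each), against 2.25 ± 0.0223 and 1.96 ± 0.269 CPM per kb in the proximal pools.

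**Figure D5:**
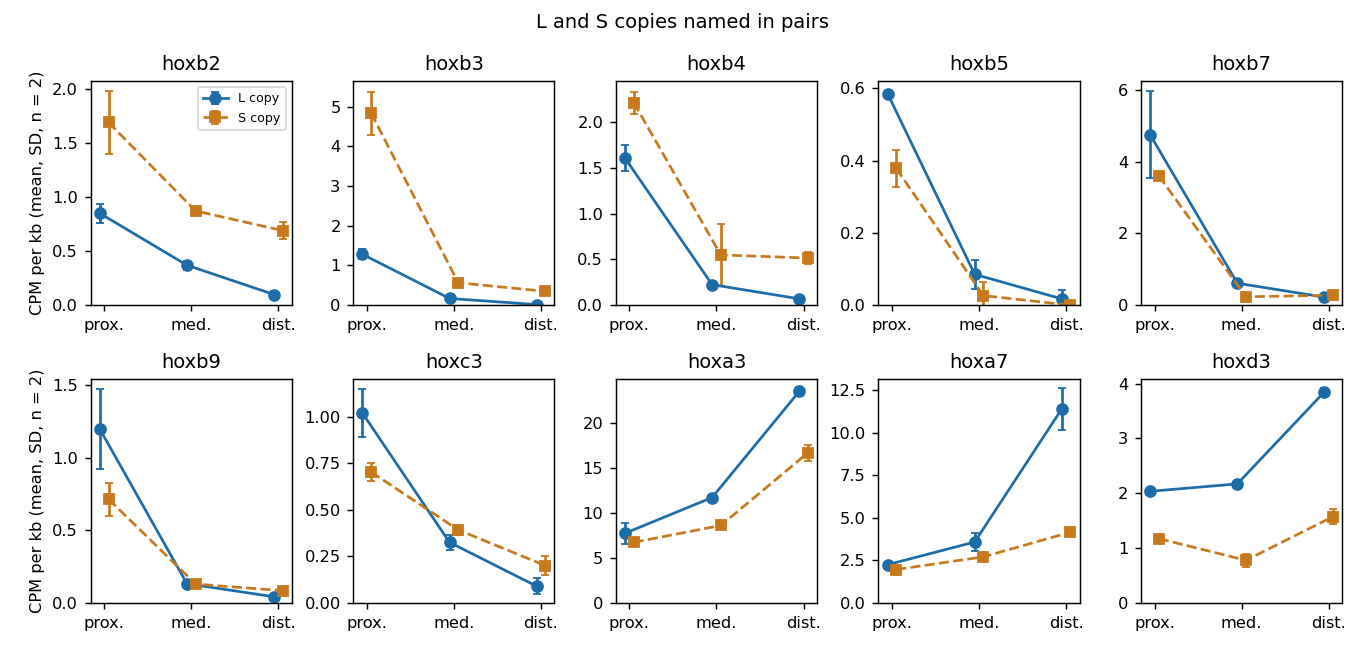
Mean level of the L (circles, solid line) and S (squares, dashed line) copy of the 10 genes with both copies named, in CPM per kb of exon with the SD of 2 pools, over the proximal, medial and distal segments. Each panel has its own axis from 0. Copies of a gene run in the same direction from proximal to distal, and hoxb3.S, hoxa7.L and hoxd3.L lie above their partners at the segment where the gene is highest.

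Hox proteins bind DNA with TALE cofactors (PBX, MEIS and PKNOX), and MEIS genes mark the proximal limb in mouse and chick. Of 9 such genes, 7 were named, in 11 copies, and distal against proximal 9 fell and 2 rose. The largest falls were meis2.S, whose proximal level was higher by a ratio of 732 (95% counting interval 314 to 2257, from 5 distal counts), and meis3.S, with a log2 fold change of −3.31 (SE 0.15, adjusted p in edgeR = 4.60e-08). The copies that rose were pknox2.S, at 4.78 (SE 0.18, adjusted p in edgeR = 1.39e-08), and pknox2.L, at 4.37 (SE 0.14, adjusted p in edgeR = 4.67e-09). At the inner step 9 copies were lower and 2 higher, where 16.7% and 9.82% of the named genes were called. Summed over the list the level went from 820 to 871 CPM in the proximal pools to 343 to 381 CPM in the medial and 307 to 325 CPM in the distal pools.

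Retinoic acid, made by ALDH1A enzymes and removed by CYP26 enzymes, is a known inducer of anterior Hox and MEIS genes in vertebrates. Of 18 genes of this pathway 15 were named, in 27 copies, of which 15 fell, 7 rose and 5 did not pass distal against proximal. At the inner step 16 of the copies were lower and 5 higher, where 16.7% and 9.82% of the named genes were called. The largest falls distal against proximal were crabp1.S, a retinoic acid binding protein, at −5.15 (SE 0.29, adjusted p in edgeR = 2.52e-07), and rarb.L, a receptor, at −4.46 (SE 0.32, adjusted p in edgeR = 1.32e-06). The largest rises were cyp26c1.L, at 5.93 (SE 0.60, adjusted p in edgeR = 0.0019), and cyp26c1.S, at 5.20 (SE 0.61, adjusted p in edgeR = 0.00604). Of the genes known to regulate trunk Hox genes, 4 of 20 were named, in 5 copies, and 2 fell, 2 rose and 1 did not pass distal against proximal. For all of these lists only genes the authors had called carry a name, so the counts distal against proximal are read against the 39.3% (higher) and 49.0% (lower) of named genes and not as a property of a pathway.

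Markers of other cell types also moved along the limb. These lists too hold only named genes. Of the named genes tested, 39.3% were called higher and 49.0% lower distal against proximal. At the inner step 9.82% were called higher and 16.7% lower. Summed over 21 named blood copies (13 of 17 genes), the level was 29836 to 41391 CPM in the proximal pools, 54843 to 63539 CPM in the medial pools and 1249 to 2508 CPM in the distal pools, and all 21 copies fell distal against proximal. At the inner step no blood copy was called lower and 2 were called higher. Nerve and Schwann cell markers (7 of 17 genes, 13 copies) summed to 185 to 222 CPM, 168 to 172 CPM and 73.0 to 79.9 CPM in the same order, with 12 copies lower distal against proximal and 4 lower at the inner step. Endothelial markers (6 of 14 genes, 10 copies) summed to 439 to 452 CPM, 349 to 383 CPM and 262 to 294 CPM, with 9 copies lower and 1 higher distal against proximal. At the inner step 6 of the endothelial copies were lower and 0 higher.

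Muscle markers (11 of 16 genes, 18 copies) summed to 114 to 115 CPM proximally, 76.2 to 78.8 CPM medially and 30.6 to 41.4 CPM distally. Of the muscle copies 17 fell distal against proximal, and 10 were lower and 0 higher at the inner step. Cartilage markers (10 of 15 genes, 16 copies) went from 2488 to 2878 CPM over 1969 to 2144 CPM to 1342 to 1349 CPM. Of the cartilage copies 14 fell distal against proximal, and 8 were lower and 0 higher at the inner step. Epidermal markers (7 of 15 genes, 12 copies) went from 338 to 385 CPM over 285 to 438 CPM to 582 to 589 CPM, with 8 copies higher and 2 lower distal against proximal. At the inner step 0 epidermal copies were called. No named copy of these lists was at 0 in all 6 libraries. The part of such cell types in the Hox values was not tested.

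The genes most like the leading copy of each set were found among 4620 named genes by the distance between their centred log2 CPM profiles over the 6 libraries (0 would be identical). For hoxb3.S these were tmem163.L (distance 0.375), fgf13.S (0.440) and nr2f1.S (0.571). Of these, nr2f1.S went from a mean of 26.9 CPM proximally over 4.39 CPM medially to 2.78 CPM distally. For hoxc10.L they were crabp2.L (0.161), vasn.L (0.163) and emilin3.L (0.176), of which crabp2.L stood at 360 CPM, 359 CPM and 124 CPM in the same order. For hoxa3.L they were lhx9.L (0.140), cacnb2.L (0.170) and mettl24.L (0.204), of which lhx9.L, a LIM homeobox gene used in distal limb bud mesenchyme of the mouse, stood at 134 CPM, 214 CPM and 390 CPM. Distances over 6 libraries describe these samples only.

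The authors' deposited table lists 27 of the 28 copies distal against proximal. It lists 11 for the outer step and 14 for the inner one. In all 52 listings the sign was the same as in the edgeR fit and the copy was called there. The orientation of the authors' signs was read from the values, and their table comes from the same libraries. The match is therefore no independent check. The copy not listed distal against proximal was hoxd3.S. For hoxb3.L the authors' deposited table gives a log2 fold change of −6.36 and for hoxa3.L one of 1.62 distal against proximal, with the sign turned so that a positive value means higher distally.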

How the data were processed

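Per the file headers, counting was done by the authors in paired mode with featureCounts 2.0.1. Strand was not used, and fragments with several alignments or shared by genes were left out. The deposited counts are raw fragment counts, and the exon lengths beside them are other values, in base pairs, deposited by the authors. The deposited companion table holds counts of fragments per assignment category and was not used for a result. Per the submitters' processing notes, Trimmomatic 0.39, HISAT2 2.2.1, SAMtools 1.10 and DESeq2 1.30.1 were used. The genome build is not given in the sources used here. The authors' deposited table of significant genes gives, per the file headers, a log2 fold change, an adjusted p-value and a mean normalized signal per gene. It holds only calls with an adjusted p-value under 0.05, and its log2 signs were turned so that positive means higher in the more distal segment. Which segment a positive sign stood for was read from the values.

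From the counts, filterByExpr by segment (minimum count 10, minimum total 15) kept 27007 of 51061 gene IDs. TMM gave the scaling factors. The test was the robust quasi-likelihood test of edgeR 4.0.16 (R 4.3.3) over all 6 libraries with segment as the factor. It left 3 residual degrees of freedom, with a common biological variation of 0.0948 (coefficient). Adjustment was over all genes tested (Benjamini-Hochberg), and a value under 0.05 is a call. Where each library of the lower segment had 3 or fewer counts, the ratio of summed counts is given with an exact 95% binomial interval for counting error only. The members, lists and tests were chosen with earlier results of these data known. All 28 members are named, and those with a mean of at least 5 CPM in a segment are given library by library. For the leading copy of each set the 3 most similar genes are named, and from each pathway list the 2 largest changes in either direction. Alternatives were RLE factors, no scaling, no filter, at least 10 counts in every library, a non-robust fit, a replicate block, limma-voom (limma 3.58.1), DESeq2 1.42.0, a test against a fold change of 1.5 and leaving out each library. Adding 5 gene IDs whose names in the table are provisional was chosen after seeing the data. The labels name no batch, but a colour word in the sample titles is shared by the pools of the same number in all 3 segments. What it marks is not stated, and the replicate block covers it.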

Additional observations from a re-analysis of the deposited data

How the results depend on the processing

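Distal against proximal, the 28 calls ran from 24 to 28 over the 6 fits without 1 library (24 of 27 copies tested without proximal pool 2). With at least 10 counts in every library 15 calls were made, of 15 copies tested. Of the HoxB copies only hoxb2.S, hoxb3.S and hoxb4.S met this stricter filter. Distal against medial, 17 calls became 11 with DESeq2, and 9 to 17 without 1 library (9 without distal pool 1). Medial against proximal, 24 calls became 12 with at least 10 counts in every library, 13 against a fold change of 1.5 and 14 with DESeq2, and 9 to 20 without 1 library (9 without proximal pool 2). The outer step against the inner step was called for 9 copies, and for 5 to 9 without 1 library (5 without distal pool 1). For it 2 further copies were called both with no filter and with the replicate block (11 calls, 9 of them shared). Of the other alternatives, none moved a count of calls by more than 1.5 times. The cause of these changes was not tested, beyond the smaller number of copies tested under the stricter filter.

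For the fold changes of the copies in the 3 comparisons between segments, 1097 of 1218 values kept their direction and their side of the threshold, 112 lost a call, 1 gained one and 8 changed sign. The 8 were uncalled values distal against medial. For hoxb4.S (main value −0.07) they were 0.048 with no scaling factor and 0.087 with limma-voom, and values without 1 library ran from −0.584 to 0.745, above 0 without medial pool 1 and without distal pool 2 (0.020). For hoxb7.S (main value 0.30) values without 1 library ran from −0.19 to 0.79, below 0 without medial pool 1 (−0.052) and distal pool 1. For hoxc9.S (main value 0.04) they ran from −0.24 to 0.38, below 0 without medial pool 2 and distal pool 2 (−0.11). With the 5 provisional names added, 33, 21, 27 and 10 calls were made in the order above.

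Over 27007 genes, deviations of pools with the same number had correlations of 0.0251 distal with proximal, 0.0544 distal with medial and 0.203 medial with proximal. Such values cannot show that the pools are unpaired, because counting noise in genes with low counts pulls them towards 0. The main fit did not pair pools by number, or by the colour word that goes with each number in the sample titles. With a replicate block for pool number the calls were 28, 17, 23 and 11. Copies at 3 or fewer counts per library are limited by depth, above all hoxb4.L, hoxb5.L, hoxb5.S, hoxb9.L and hoxb9.S in the distal pools and hoxd1.L in the proximal pools.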

Other observations

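Inside the spans of the named Hox clusters lay gene IDs without a name, because the authors called them in no comparison. The HoxB spans held 2 of these, 1 of them above the low-count filter, with a summed mean of 0.846 CPM in the proximal, 0.164 CPM in the medial and 0.0963 CPM in the distal segment. The HoxC spans held 23, of which 13 passed the filter, and their summed means were 31.9 CPM, 26.5 CPM and 24.3 CPM. The HoxA spans held 11 (8 passed), summing to 16.4 CPM, 18.2 CPM and 24.5 CPM, and the HoxD spans 7 (4 passed), summing to 4.75 CPM, 4.87 CPM and 7.41 CPM. Distal against proximal, edgeR called 3 of 4 tested IDs in the HoxA span of the L chromosome and 5 of 9 in that of HoxC. Over all tested IDs of these spans, called or not, the log2 fold changes ran both ways, from −1.55 to 2.41 and from −2.27 to 2.50. The edgeR fit also called 1 of 1 in the HoxB L span and 1 of 2 in the HoxD S span, and none in the others. Of all genes tested, 13.6% were called higher and 15.9% lower there. These shares include the named genes, of which 39.3% and 49.0% were called. The shares over genes without a name are therefore lower, and they are not given here. These gene IDs have no name and no role is given to them.

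A provisional Hox name in the authors' deposited table fell outside the rule in 5 gene IDs. Both IDs with a provisional hoxb8 name fell distal against proximal, with log2 fold changes of −5.39 (SE 0.48) on the L and −4.40 (SE 0.43) on the S chromosome. The IDs with provisional hoxc4 and hoxc10 names, both on chromosome 2S, were at −1.07 (SE 0.16) and −0.91 (SE 0.10), and the one with a provisional hoxa6 name rose by 1.66 (SE 0.18). All 5 passed edgeR's quasi-likelihood test in that comparison. Both hoxb8 IDs passed the filter on low counts only through the proximal pools, so their direction is no independent result. All 5 also have a name only because the authors called them.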
